A study of Homo sapiens with 9 samples.

Results

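The transforming growth factor beta (TGF-beta) and activin pathway is represented here by 10 genes: the ligand genes TGFB1, TGFB2 and INHBA, the activator gene THBS1, the receptor genes TGFBR1 and TGFBR2, and SMAD2, SMAD3, SMAD4 and SMAD7. They were chosen by gene symbol from the 13052 genes of the authors' 2 deposited tables, and all 10 were found in both. The study compared MCF10A cells, a human mammary epithelial line that is not transformed, in 3 groups of 3 poly(A) RNA libraries each: XRCC1-KO (genotype XRCC1-knockout), APE1-KO (genotype APE1-knockout) and Control-KO, which expresses Cas9 and has the genotype label WT. XRCC1 is a scaffold of single-strand break repair, and APE1, the product of APEX1, incises DNA at abasic sites. Cells of all groups were kept in one medium with horse serum, epidermal growth factor, cholera toxin, insulin and hydrocortisone. The labels do not say whether a knockout line is 1 clone or a pool, or whether replicate libraries stem from different cultures; the p-values therefore reflect spread among these libraries alone, and that spread may be technical.

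TGF-beta is secreted in a latent complex and must be released before it binds its receptors. The ligand brings together a type II receptor, which TGFBR2 encodes, and a type I receptor kinase, which TGFBR1 encodes. The kinase phosphorylates SMAD2 and SMAD3, which enter the nucleus with SMAD4 and change transcription, while SMAD7, itself a target gene, blocks the receptor. Activin A, a dimer of the INHBA product, uses other receptors and the same SMAD2 and SMAD3. In mammary epithelial cells the pathway is known for growth arrest, matrix production and epithelial-mesenchymal transition, and TGF-beta and activin A are known among the factors that senescent cells secrete.

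In neither knockout did any of the 10 transcripts pass adjusted p 0.05 against Control-KO. The background in the authors' deposited tables was 0% of 13052 genes for XRCC1-KO and 0.00766% (APEX1 alone) for APE1-KO. At an unadjusted p under 0.05 the members also numbered 0 in both tables, where 5.96% of all genes passed for XRCC1-KO and 1.45% for APE1-KO. The median log2 fold change of the 10 members was -0.086 for XRCC1-KO and -0.049 for APE1-KO, beside -0.00085 and -0.00098 over all genes. Below 0 lay 6 of the 10 in XRCC1-KO and 7 in APE1-KO, where 50.3% and 50.5% of all genes did. The smallest p-values of the group belonged to SMAD2 in XRCC1-KO and to INHBA in APE1-KO. No member passed in the contrast of XRCC1-KO with APE1-KO either, at adjusted p (background 0.00766% of 13051 genes) or unadjusted p (background 0.736%).

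The annotated promoters of 4 members with a single RefSeq start are shown because they lie before the ligand and activator genes, of which INHBA and THBS1 had the largest errors for their abundance (values follow). Each line holds the 250 bases upstream of the start, 5′ to 3′ on the gene's strand, from RefSeq on GRCh38.p14. Capitals mark 3 motifs, each searched on both strands. The TATA motif was spelled TATAAA. The core of the GC box was spelled GGGCGG. The SMAD-binding core was spelled CAGAC. Overlapping matches were each counted, and among different motifs the SMAD-binding core alone can overlap another, by the end base it can share with a GC-box core.
INHBA, chr7:41703091-41703340, minus strand: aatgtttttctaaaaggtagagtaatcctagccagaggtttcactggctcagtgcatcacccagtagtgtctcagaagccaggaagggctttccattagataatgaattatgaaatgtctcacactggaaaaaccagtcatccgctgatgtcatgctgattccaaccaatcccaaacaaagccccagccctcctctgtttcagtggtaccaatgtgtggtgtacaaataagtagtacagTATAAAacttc
TGFB2, chr1:218345086-218345335, plus strand: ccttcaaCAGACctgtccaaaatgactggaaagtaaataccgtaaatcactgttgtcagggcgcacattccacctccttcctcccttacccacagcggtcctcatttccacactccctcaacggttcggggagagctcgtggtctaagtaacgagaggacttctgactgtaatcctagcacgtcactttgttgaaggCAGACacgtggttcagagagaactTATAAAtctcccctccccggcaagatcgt
THBS1, chr15:39580829-39581078, plus strand: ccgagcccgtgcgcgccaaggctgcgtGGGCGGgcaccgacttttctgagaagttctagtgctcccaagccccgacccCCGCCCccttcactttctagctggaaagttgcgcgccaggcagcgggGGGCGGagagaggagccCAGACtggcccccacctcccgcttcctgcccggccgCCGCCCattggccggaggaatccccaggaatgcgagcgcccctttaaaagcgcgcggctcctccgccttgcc
TGFB1, chr19:41353923-41354172, minus strand: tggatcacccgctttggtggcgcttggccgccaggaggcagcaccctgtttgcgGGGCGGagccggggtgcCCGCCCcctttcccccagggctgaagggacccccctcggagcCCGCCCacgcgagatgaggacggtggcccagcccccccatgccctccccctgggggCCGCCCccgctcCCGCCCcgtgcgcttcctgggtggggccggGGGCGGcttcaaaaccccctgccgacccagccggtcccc
The TATA motif begins 11 bases before the INHBA start and 29 bases before the TGFB2 start, and neither of these promoters holds the GC-box core. THBS1 and TGFB1 are the reverse, with 4 and 6 copies of the GC-box core and no TATA motif. The SMAD-binding core occurs 2 times before TGFB2 and 1 time before THBS1. Over windows of 300 bases (250 before the start and 50 after it), the TATA motif was found in 11.5%, the GC-box core in 45% and the SMAD-binding core in 45.3% of 35116 RefSeq windows. The 10 members have 25 such windows, of which 3 held the TATA motif, 11 the GC-box core and 12 the SMAD-binding core. These are matches of letters and say nothing of binding in these cells.

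Among the ligands, TGFB1 was the steadiest. TGFB1 (ENSG00000105329.5, hg19 chromosome 19, 41807492 to 41859816, minus strand) encodes the most widely expressed TGF-beta and had a mean log2 CPM (CPM, library-scaled counts; a single mean over the libraries) of 6.89 in the authors' deposited tables. Its log2 fold change was 0.018 in the authors' deposited table for XRCC1-KO (95% interval -0.19 to 0.22, F test p = 0.855, adjusted p = 0.968), or 1.01-fold with an interval of 0.878 to 1.17. The authors' deposited APE1-KO table gave -0.092 (interval -0.30 to 0.11, p = 0.355, adjusted p = 1), or 0.938-fold. Both intervals of TGFB1 spanned no change and were narrow beside those of the other ligands. Its annotated span overlaps HNRNPUL1, CCDC97 and TMEM91 on the opposite strand; the library kit keeps strand, while the strand setting of the quantification is not given in the sources used here.

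INHBA and TGFB2 had the lowest values of the 10 members in APE1-KO, both with wide errors. INHBA (ENSG00000122641.9, hg19 chromosome 7, 41724712 to 41742706, minus strand), which encodes the subunit of activin A, had a mean log2 CPM of 3.99. It stood at -0.67 in the authors' deposited table for APE1-KO, or 0.627-fold (95% limits 0.355 to 1.11, p = 0.102, adjusted p = 1). For XRCC1-KO, INHBA in the authors' deposited table stood at 0.052, or 1.04-fold (95% limits 0.594 to 1.81, p = 0.891, adjusted p = 0.976). The log2 fold change of INHBA in APE1-KO was lower than that of all but 0.866% of genes, yet its interval reached above 0. XRCC1-KO against APE1-KO gave 0.73 for INHBA (interval -0.42 to 1.88, adjusted p = 1.00), which was within the error. That error is taken without covariance and counts the shared Control-KO libraries in both terms, so the interval is wider than 95%.

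TGFB2 (ENSG00000092969.7, hg19 chromosome 1, 218519577 to 218617961, plus strand), which encodes a second TGF-beta, was close to the lower end of detection with a mean log2 CPM of -1.74. The authors' deposited XRCC1-KO table gave -0.059 (interval -1.29 to 1.18, p = 0.92) and the authors' deposited table for APE1-KO -0.45 (interval -1.77 to 0.86, p = 0.473). At this abundance a change of up to 2.26-fold upward in XRCC1-KO and down to 0.294-fold in APE1-KO lay inside the intervals, so no difference was detectable. These limits may be too narrow, since fitted log2 fold changes of such low transcripts can be shrunk and the recovered error with them.

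THBS1 was the most abundant member, and neither knockout moved it beyond the error. THBS1 (ENSG00000137801.9, hg19 chromosome 15, 39873280 to 39891667, plus strand) encodes thrombospondin-1, a matrix glycoprotein that can release TGF-beta from its latent form, and had a mean log2 CPM of 10.6. The authors' deposited XRCC1-KO table gave 0.093 for THBS1, or 1.07-fold (95% limits 0.688 to 1.65, p = 0.758, adjusted p = 0.947). The authors' deposited APE1-KO table gave 0.0074, or 1.01-fold (95% limits 0.649 to 1.56, p = 0.98, adjusted p = 1). Both intervals were wide for so abundant a transcript.

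**Figure D1:**
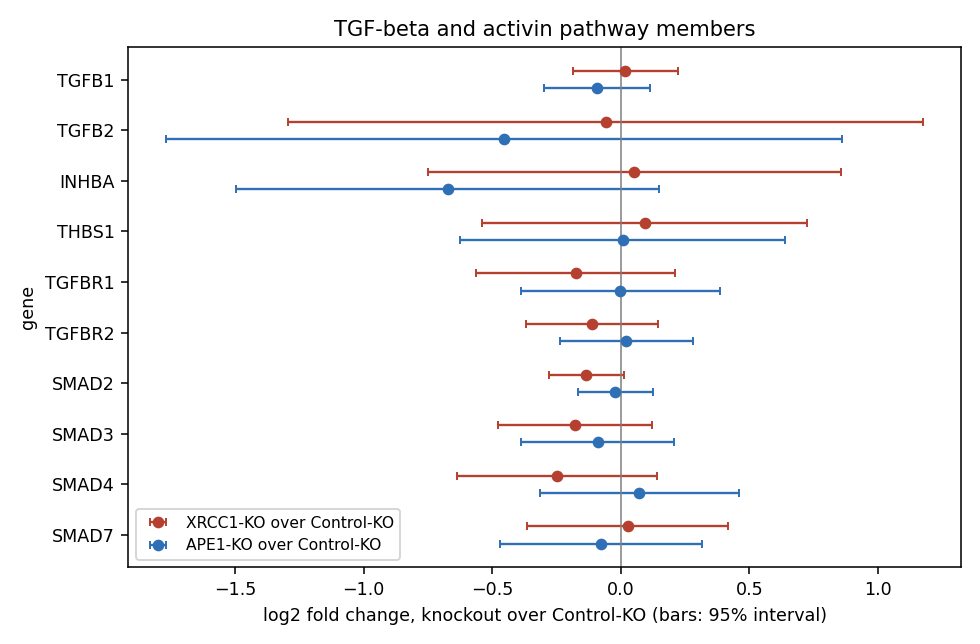
Log2 fold change of the 10 members (rows) in XRCC1-KO (red) and APE1-KO (blue) over Control-KO from the authors' deposited tables, with bars for the 95% interval from recovered standard errors. Every bar crosses 0, the bars of TGFB2, INHBA and THBS1 are the widest, and TGFBR1, TGFBR2, SMAD2, SMAD3 and SMAD4 lie left of 0 in XRCC1-KO.

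Both receptor genes and the 3 SMAD genes that carry the signal had log2 fold changes below 0 in XRCC1-KO (background 50.3%). The median over these 5 genes was -0.18, with a range of -0.25 to -0.11. This group was not among the planned lists. Outside it, TGFB1, SMAD7, INHBA and THBS1 lay above 0 in XRCC1-KO and TGFB2 below. In APE1-KO the same 5 genes had a median of -0.0018 and a range of -0.090 to 0.072. Of the 5, 3 lay below 0 in APE1-KO (background 50.5%). TGFBR2 (ENSG00000163513.13, hg19 chromosome 3, 30647994 to 30735634, plus strand), the type II receptor, stood at -0.11 in the authors' deposited table for XRCC1-KO (interval -0.37 to 0.15, p = 0.37) and at 0.021 in the authors' deposited table for APE1-KO (interval -0.24 to 0.28, p = 0.862). TGFBR1 (ENSG00000106799.8, hg19 chromosome 9, 101866320 to 101916474, plus strand), the type I receptor kinase, stood at -0.18 in the authors' deposited table for XRCC1-KO (interval -0.56 to 0.21, p = 0.347) and at -0.0018 in the authors' deposited table for APE1-KO (interval -0.39 to 0.38, p = 0.992). Neither receptor transcript differed from Control-KO by more than its error.

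SMAD2 had the narrowest interval of the group. SMAD2 (ENSG00000175387.11, hg19 chromosome 18, 45357922 to 45457515, minus strand) stood at -0.13 in the authors' deposited table for XRCC1-KO, or 0.911-fold (95% limits 0.824 to 1.01, p = 0.0687, adjusted p = 0.76). For APE1-KO, SMAD2 in the authors' deposited table stood at -0.021, or 0.986-fold (95% limits 0.891 to 1.09, p = 0.767, adjusted p = 1). Both intervals of SMAD2 included no change.

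SMAD3 (ENSG00000166949.11, hg19 chromosome 15, 67356101 to 67487533, plus strand), the other receptor-regulated SMAD, stood at -0.18 in the authors' deposited table for XRCC1-KO (interval -0.48 to 0.12, p = 0.222) and at -0.090 in the authors' deposited table for APE1-KO (interval -0.39 to 0.21, p = 0.531). SMAD4 (ENSG00000141646.9, hg19 chromosome 18, 48494410 to 48611415, plus strand), the partner that both need, had the lowest XRCC1-KO value of the 10 members. It stood at -0.25 in the authors' deposited table for XRCC1-KO, or 0.841-fold (95% limits 0.642 to 1.10, p = 0.194, adjusted p = 0.774), and at 0.072 in the authors' deposited table for APE1-KO (interval -0.31 to 0.46, p = 0.697). XRCC1-KO against APE1-KO gave -0.32 for SMAD4 (interval -0.87 to 0.23, adjusted p = 1.00), with an interval too wide in the same way as that of INHBA. The annotated span of SMAD4 overlaps ELAC1 on the same strand, so reads of the overlap could be split between them.

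SMAD7, the inhibitory SMAD that TGF-beta signalling induces, did not differ from Control-KO beyond its error in either knockout. SMAD7 (ENSG00000101665.4, hg19 chromosome 18, 46446223 to 46477081, minus strand) had a mean log2 CPM of 3.54 and stood at 0.026 in the authors' deposited table for XRCC1-KO (interval -0.37 to 0.42, p = 0.888). The authors' deposited APE1-KO table gave -0.077 for it (interval -0.47 to 0.32, p = 0.683).

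Per length, THBS1 was highest and TGFB2 lowest of the 10 genes. With the median transcript length of each gene in GENCODE release 29 (basic set), mean log2 CPM per kilobase was 7.64 for THBS1, 6.43 for TGFBR2, 6.02 for SMAD3 and 5.42 for TGFB1. On the same scale TGFBR1 stood at 3.68, SMAD7 at 3.19, SMAD2 at 3.03, SMAD4 at 3.01 and INHBA at 2.99. TGFB2 came last on that scale, at -4.07. With the longest transcript in place of the median, SMAD3 dropped to 3.99, SMAD7 to 1.39, INHBA to 1.39 and SMAD2 to 1.30, while THBS1, TGFBR2 and TGFB1 became the 3 highest. The order of the 4 values between 2.99 and 3.19 should not be read, since a spread over libraries was not available for these levels.

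TGFBR1, TGFBR2, SMAD2 and SMAD4 have long transcripts, and fold changes in XRCC1-KO declined with length over all genes. In 10 bins of transcript length the median log2 fold change in XRCC1-KO was 0.13 for the shortest transcripts and -0.098 for the longest, and in APE1-KO 0.012 and 0.028. A linear trend in length and GC content, fitted over 11175 genes, gave -0.12 for TGFBR1, -0.061 for TGFBR2, -0.16 for SMAD2 and -0.14 for SMAD4 in XRCC1-KO. With that trend taken away, TGFBR1 was left at -0.056, TGFBR2 at -0.051, SMAD2 at 0.028 and SMAD4 at -0.11. The median of the 5 receptor and SMAD genes was then -0.056, beside -0.18 before. With the longest transcript as length, a choice made after the data were seen, it was -0.074. SMAD3 went the other way, to -0.25, because the median length used for it was 1530 bases; its longest transcript, of 6247 bases, left it at -0.15. THBS1, with 7775 bases, stood at 0.21 once the trend was removed. No member passed adjusted p 0.05 with the trend removed.

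**Figure D2:**
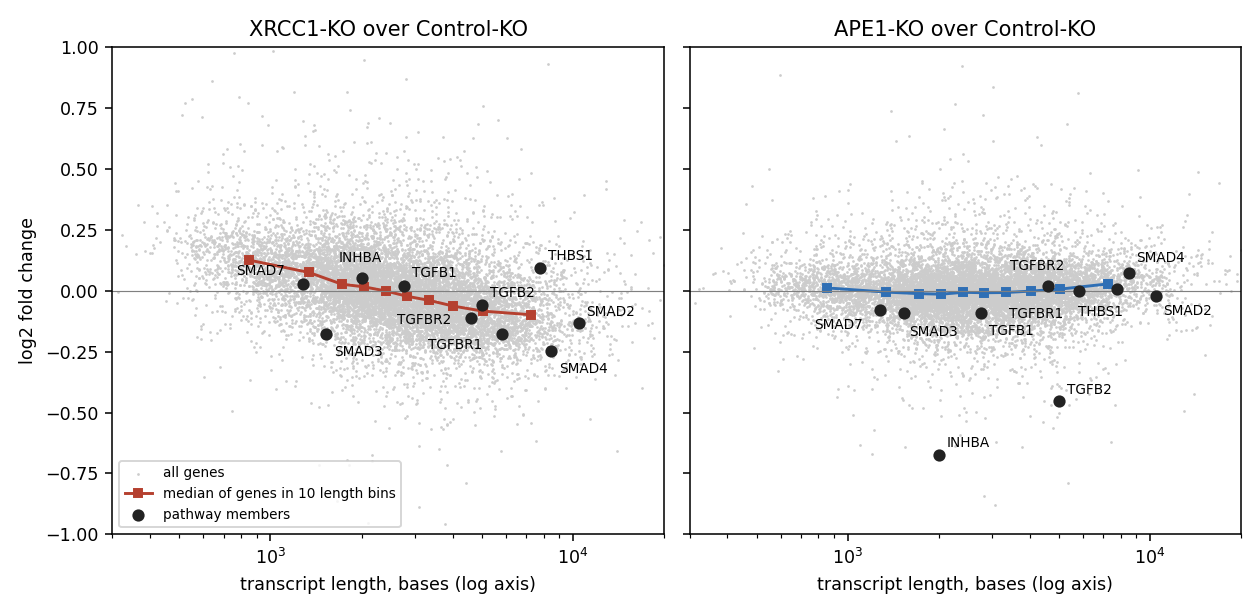
Log2 fold change against transcript length (log axis) for genes whose mean log2 CPM reached 1 (grey), medians of 10 length bins (coloured squares) and the 10 members (black), in XRCC1-KO (left) and APE1-KO (right) over Control-KO; genes beyond 1 in either direction fall outside the axes. In XRCC1-KO the bin medians fall from 0.13 to -0.098, and TGFBR1, TGFBR2, SMAD2 and SMAD4 sit among long transcripts below 0.

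Several members varied between libraries more than other genes of their abundance. The standard error of the log2 fold change, recovered from the deposited fold changes and F statistics, reflects the spread within groups over all libraries. For THBS1 it was 0.297, beside a median of 0.102 over 58 genes within 0.5 of its mean log2 CPM, and none of the 58 had a larger one. INHBA had 0.383 beside a median of 0.124 over 1805 such genes, of which 99.7% had a smaller error. SMAD4 (97.6%), TGFBR1 (97.6%) and SMAD3 (90.9%) also stood above 90% of such genes. TGFB1 (59.8%) and TGFB2 (50%) were near the middle, and SMAD2, at 0.0684, had a smaller error than most (9.46%). Thus 5 of the 10 members lay among the 10% of genes with the largest errors for their abundance. Which libraries carried this spread is not known, because values per library were not analysed here.

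**Figure D3:**
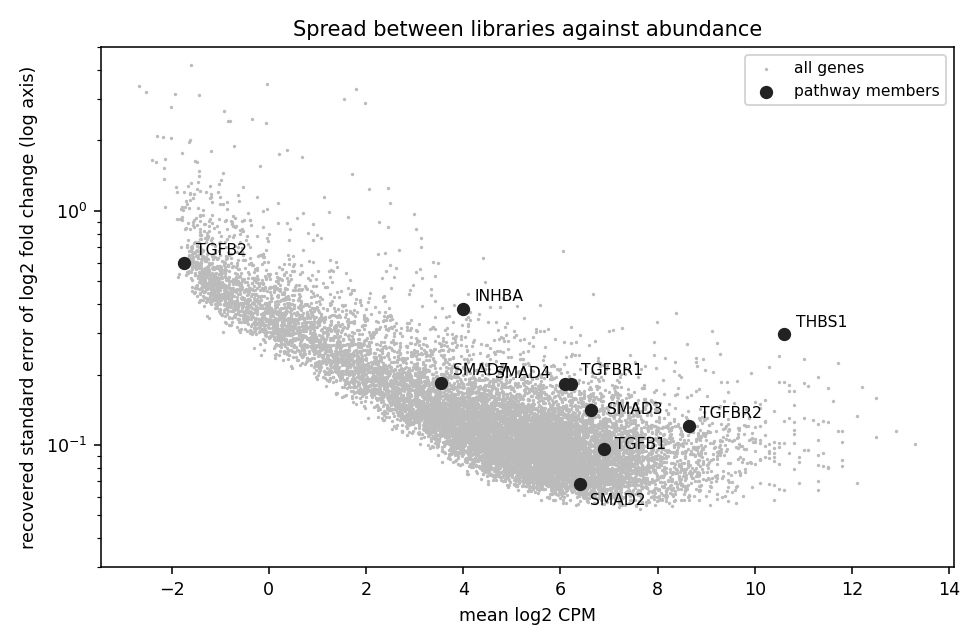
Recovered standard error of the log2 fold change (log axis; root mean square of both comparisons) against mean log2 CPM for all genes (grey) and the 10 members (black). THBS1 and INHBA lie at the upper edge of the cloud, SMAD2 near the lower edge, and TGFB2 at the low-abundance end.

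Large errors were also seen among other genes of the pathway and among markers. Of 35 measured genes known to be induced by TGF-beta in epithelial cells, 15 lay among the 10% with the largest errors for their abundance. The same held for 5 of 12 genes of latency and activation, 4 of 11 other receptors and antagonists, 4 of 24 intracellular regulators and 3 of 8 basal markers. It held for 1 of 9 genes known as repressed and 2 of 13 of the BMP branch. Among the other marker lists it held for 1 of 4 general epithelial, 2 of 4 fibroblast, 0 of 3 leukocyte and 0 of 1 endothelial markers. The lists share genes, so some are counted more than once. PMEPA1 and SKIL count as both induced genes and regulators, and LTBP2 as both an induced gene and a latency gene. COL1A1, an induced gene, and DCN, of the receptors and antagonists, also count as fibroblast markers. Whether these shares differ was not tested. PMEPA1, a feedback inhibitor, exceeded 99.1% of genes of like abundance in standard error, the sphingosine kinase gene SPHK1 99.7%, the actin-binding protein gene TAGLN 99.1% and SKIL, a SMAD co-repressor, 97.6%. FN1 (fibronectin), at 70.6%, and TGFBI, with 5 genes of like abundance, did not stand out. These target genes were named after their errors were seen. Genes measured in the same libraries are not independent, so the counts describe these libraries only.

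The list of induced genes was chosen with earlier results of these data known, so its medians and directions are descriptive only. In XRCC1-KO the median over the 35 induced genes was 0.11 (log2 fold change), with 24 above 0, where 49.7% of all genes lay above 0. None passed adjusted p 0.05. At an unadjusted p under 0.05, 4 were higher (background 3.26%) and 1 was lower (background 2.7%). With the length and GC trend removed, 2 were higher and 1 was lower. The share of all genes under p 0.05 was not computed for that setting, so these counts have no background. The median was then 0.11 with 26 of 35 above 0. Over all genes with a length, 6298 then lay above 0 and 6540 below. CDKN1A, which encodes the cell cycle inhibitor p21 and is also a p53 target, stood at 0.69 in the authors' deposited table for XRCC1-KO (interval 0.45 to 0.93, p = 1.89e-05, adjusted p = 0.123). CCN1, a matricellular protein gene, stood at 0.39 (p = 0.00842) and the stress-response gene GADD45B at 0.38 (p = 0.0126) in the authors' deposited table for XRCC1-KO. IL11, an interleukin gene named here after its value was seen, stood at 0.43 (p = 0.0428) in the same table, the authors' deposited one. VIM, which encodes the mesenchymal filament vimentin, was at -0.29 (p = 0.025) by the authors' deposited values.

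In APE1-KO the same 35 genes had a median of -0.012, with 15 above 0 (background 49.5%). At an unadjusted p under 0.05, 1 was higher (background 0.774%) and 2 were lower (background 0.674%). With the trend removed, 1 was higher and 1 was lower, again without a background share, and the median was -0.021 with 15 above 0. Over all genes with a length, 6387 then lay above 0 and 6451 below. CDKN1A stood at 0.38 (p = 0.00453), VIM at -0.40 (p = 0.0037) and MMP9, a matrix metalloproteinase gene, at -0.51 (p = 0.0457) in the authors' deposited table for APE1-KO, each with an adjusted p of 1. For XRCC1-KO against APE1-KO the list median was 0.15, with 28 of 35 above 0 (51.5% of all genes), again descriptive only. In that contrast 2 genes had an unadjusted p under 0.05, both higher (background 0.467%): GADD45B at 0.52 (interval 0.12 to 0.92, adjusted p = 1.00) and CCN1 at 0.39 (interval 0.0029 to 0.79, adjusted p = 1.00). With the trend removed GADD45B stood at 0.38 and CCN1 at 0.38, and neither had an unadjusted p under 0.05. That p uses the error without covariance, which is overstated, so these losses cannot be read as an absence of difference. With the trend removed the list median was 0.12, with 30 of 35 above 0. Over all genes with a length, 6380 lay above 0 and 6458 below.

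**Figure D4:**
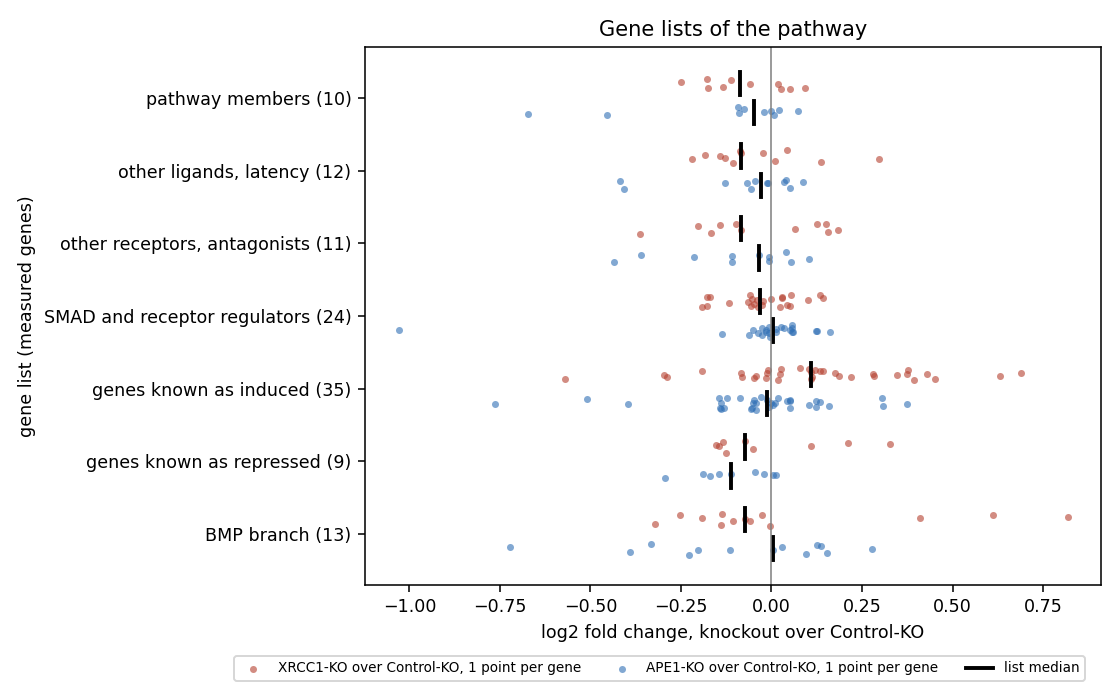
Log2 fold change in XRCC1-KO (red) and APE1-KO (blue) over Control-KO for the measured genes of each list (number in brackets), with black bars at the list medians. The median of genes known as induced is 0.11 in XRCC1-KO and -0.012 in APE1-KO, and the points of the other lists spread on both sides of 0.

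Of 9 measured genes known to be repressed by TGF-beta, 0 had an unadjusted p under 0.05 in either knockout against Control-KO. The background was 5.96% of all genes in XRCC1-KO and 1.45% in APE1-KO. Between the knockouts ID1 alone had an unadjusted p under 0.05 (1 of 9 higher, background 0.467%). The list had a median of -0.073 in XRCC1-KO and -0.11 in APE1-KO. MYC, a growth-promoting transcription factor gene, stood at -0.15 (p = 0.138), ESRP1, an epithelial splicing factor gene, at -0.13 (p = 0.151) and ID2, an inhibitor of differentiation, at 0.33 (p = 0.146) in the authors' deposited table for XRCC1-KO. ID1, of the same family as ID2, stood at 0.21 (p = 0.207) in the authors' deposited table for XRCC1-KO and at -0.29 (p = 0.0892) in the authors' deposited table for APE1-KO. XRCC1-KO against APE1-KO gave 0.51 for ID1 (interval 0.020 to 0.99, adjusted p = 1.00). With the trend removed ID1 stood at 0.38 in that contrast, past no threshold, but the error without covariance is overstated here too. ID3 stood at -0.14 (p = 0.246) and ID2 at -0.19 (p = 0.397) in the authors' deposited table for APE1-KO.

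Other ligands and genes of latency and activation gave no call. Of 17 listed, 12 were measured, with a median of -0.085 in XRCC1-KO and -0.029 in APE1-KO. None had an unadjusted p under 0.05 in either knockout (background 5.96% in XRCC1-KO and 1.45% in APE1-KO). ITGAV, an integrin subunit that binds latent TGF-beta, stood at -0.22 (p = 0.141), the latent TGF-beta binding protein gene LTBP1 at -0.14 (p = 0.182) and the proprotein convertase gene FURIN at -0.11 (p = 0.216) in the authors' deposited table for XRCC1-KO. LTBP4, another latent TGF-beta binding protein gene, stood at -0.13 (p = 0.137), LTBP1 at 0.087 (p = 0.407) and PCSK6, a convertase gene, at -0.067 (p = 0.598) in the authors' deposited table for APE1-KO.

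Among 11 measured genes of other receptors and extracellular antagonists, the medians were -0.084 in XRCC1-KO and -0.035 in APE1-KO. The XRCC1-KO median was -0.0096 without the 1 gene under a mean log2 CPM of 1, and -0.043 with the trend removed. ACVR2B, a type II activin receptor gene, was the 1 of 11 with an unadjusted p under 0.05, lower in XRCC1-KO (background 2.7%). It stood at -0.36 in the authors' deposited table for XRCC1-KO (interval -0.63 to -0.094, p = 0.0115, adjusted p = 0.76) and at -0.11 in the authors' deposited table for APE1-KO (p = 0.398). With the trend removed ACVR2B stood at -0.21 in XRCC1-KO and no longer had an unadjusted p under 0.05. FSTL3, an activin-binding protein gene, stood at 0.16 (p = 0.278) and BAMBI, a pseudoreceptor gene, at 0.15 (p = 0.291) in the authors' deposited table for XRCC1-KO. FST, which encodes the activin antagonist follistatin, stood at -0.36 (p = 0.169) and the activin receptor gene ACVR2A at 0.10 (p = 0.434) in the authors' deposited table for APE1-KO.

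The 24 measured intracellular regulators had medians of -0.031 in XRCC1-KO, which was 0.033 with the trend removed, and 0.0032 in APE1-KO. RNF111, a ubiquitin ligase that removes SKI proteins, stood at -0.19 (p = 0.141), the co-repressor gene SKI at -0.12 (p = 0.145) and TRIM33, a SMAD-binding ubiquitin ligase gene, at -0.18 (p = 0.145) in the authors' deposited table for XRCC1-KO. The co-repressor gene TGIF2 stood at -0.14 (p = 0.219), the deubiquitinase gene USP9X at 0.16 (p = 0.274) and RNF111 at 0.13 (p = 0.323) in the authors' deposited table for APE1-KO. SMAD6, the inhibitory SMAD of the BMP branch, was the 1 of 24 with an unadjusted p under 0.05 (lower, background 0.674%), at -1.03 in the authors' deposited table for APE1-KO (p = 0.0303, adjusted p = 1), at a mean log2 CPM of 0.065 and named after its value was seen.

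In the BMP branch, the sister pathway that signals through SMAD1, SMAD5 and SMAD9, 13 genes were measured, with medians of -0.074 in XRCC1-KO and 0.0050 in APE1-KO. With the trend removed these were -0.026 in XRCC1-KO and -0.017 in APE1-KO. At an unadjusted p under 0.05, 2 were higher (background 3.26%) and 1 was lower (background 2.7%) in XRCC1-KO. With the trend removed 1 was higher and 0 were lower, for which no background share was computed. GDF15, a divergent member of the ligand family and a p53 target, stood at 0.82 in the authors' deposited table for XRCC1-KO (interval 0.37 to 1.26, p = 0.00138, adjusted p = 0.76). NOG, which encodes the BMP antagonist noggin, stood at 0.61 (p = 0.0403) and SMAD9 at -0.32 (p = 0.0433) in the authors' deposited table for XRCC1-KO. SMAD1 stood at -0.23 (p = 0.102), BMP2 at -0.33 (p = 0.171) and GDF15 at 0.28 (p = 0.209) in the authors' deposited table for APE1-KO. XRCC1-KO against APE1-KO had 1 of the 13 genes with an unadjusted p under 0.05 (higher, background 0.467%), the ligand gene BMP7 at 0.80 (interval 0.16 to 1.44, adjusted p = 1.00), named after its value was seen.

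The whole series sets these limits. APEX1 stood at -1.5 in the authors' deposited table for APE1-KO (adjusted p = 7.17e-08) and XRCC1 at 0.14 in the authors' deposited table for XRCC1-KO (p = 0.235); a transcript level need not change after a Cas9 frameshift, so every XRCC1-KO direction rests on the label. All 8 markers of basal mammary epithelium were measured, at a mean log2 CPM of 6.95 to 12.1, and 4 of 5 general epithelial markers at 6.34 to 8.88. Of 10 fibroblast markers 4 were measured, at 2.50 to 5.98, of 6 leukocyte markers 3, at -1.48 to 4.38, and of 5 endothelial markers KDR alone, at -0.385. The other markers were not analysed here. The XRCC1-KO and APE1-KO comparisons share their 3 Control-KO libraries, so values below or above 0 in both are not independent. In bulk RNA, fewer cells with a transcript and less of it per cell cannot be told apart, and the depth of each library is unknown.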

How the data were processed

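Poly(A) RNA was sequenced from 9 MCF10A libraries after stranded library preparation (labels' protocols). Per the submitters' processing notes, the tools were Salmon 1.4.0, Trim Galore and edgeR and the build was hg19, with no settings named. The deposited values are the authors' 2 comparisons, with log2 fold changes (knockout over Control-KO), mean log2 CPM, F statistics, p-values, false discovery rates and the −log10 of the p-value, per the file headers. How genes were filtered and modelled is not stated in those sources. Benjamini-Hochberg adjustment of the deposited p-values gave the deposited rates to within 0.00223.

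Standard errors were recovered as the absolute log2 fold change over the square root of F, an approximation. Where F was under 0.01 (among members, THBS1 and TGFBR1 in APE1-KO), the error of the other comparison was taken. Degrees of freedom were solved from F and p where F was at least 3, and their median, 15.2, was used elsewhere. Intervals are 95% Student intervals. XRCC1-KO was compared with APE1-KO by the difference of both log2 fold changes, with no covariance, and two-sided p-values were adjusted over 13051 genes. This is conservative, because the error of the shared Control-KO libraries is counted in both terms. The intervals of this contrast are therefore wider than 95% intervals and its p-values larger. The functions were tested on simulated data. Transcript length and GC content (98.4% of genes) came from GENCODE release 29, joined by gene ID. Python 3.11.15, scipy 1.17.1 and pandas 2.3.3 were used.

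The members and the 6 pathway lists were chosen with earlier results of these data known. Named are all members, the targeted genes, and for each list and comparison the 3 genes with the smallest deposited p-value among those whose mean log2 CPM reached 1. Alternatives were another adjustment set, median centring, removal of the length and GC trend, a normal distribution and a covariance between the comparisons.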

Additional observations from a re-analysis of the deposited data

How the results depend on the processing

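No member passed adjusted p 0.05 under any alternative tried, with adjusted p from 0.586 to 0.999 in XRCC1-KO, 1 throughout in APE1-KO and from 0.73 to 1 between the knockouts. The member median ranged from -0.086 to -0.020 in XRCC1-KO, from -0.059 to -0.048 in APE1-KO and from -0.0018 to 0.039 between the knockouts. Removing the length and GC trend turned the sign of some small log2 fold changes. In XRCC1-KO these were TGFB1 (-0.037), TGFB2 (0.047), SMAD2 (0.028), SMAD7 (-0.073) and USP9X (0.13). In APE1-KO they were THBS1 (-0.0025), FURIN (0.020), CCN1 (0.0015) and ESRP1 (-0.011), and between the knockouts SMAD2 (0.072), SMAD7 (-0.019) and FSTL3 (-0.019). With the longest transcript as length, chosen after the data were seen, the sign turned for TGFB1 (-0.055), TGFB2 (0.021) and SMAD2 (0.11) in XRCC1-KO, THBS1 (-0.0071) in APE1-KO and SMAD2 (0.17) between the knockouts. The same trend removal changed counts at an unadjusted p under 0.05. The share of all genes was not computed for that setting, so these changes have no background. In XRCC1-KO, induced genes that were higher numbered 2, BMP genes 1 higher and 0 lower, and receptors and antagonists 0 lower. In APE1-KO, 1 induced gene was lower. Between the knockouts the higher counts were 0 for induced and 0 for repressed genes, by the overstated error without covariance. With genes under a mean log2 CPM of 1 left out, regulators lower in APE1-KO numbered 0 and BMP genes higher between the knockouts 0, because SMAD6 and BMP7 lie under that level. A normal distribution gave 17 genes past adjusted p 0.05 in XRCC1-KO, CDKN1A among them, and 4 in APE1-KO. It treats the standard errors as known, which makes p-values too small, so these counts are no calls. The cause of the changes with the trend was not tested.

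No paired analysis was possible because the deposited tables hold comparisons and no values per replicate; for the same reason the libraries were not left out in turn. The recovered errors of INHBA and THBS1 exceeded those of 99.7% and 100% of genes of like abundance, and that of TGFB2 exceeded 50%. What limited the precision of these genes was not tested.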

Other observations

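Among the marker genes, ACTA2, which encodes smooth muscle actin and is counted among markers of myofibroblasts, stood at 0.41 in the authors' deposited table for XRCC1-KO (p = 0.00667, adjusted p = 0.76) and at 0.19 in the authors' deposited table for APE1-KO (p = 0.164). COL1A1, a fibroblast collagen gene, stood at -0.19 (p = 0.423) and FAP at -0.058 (p = 0.581) in the authors' deposited table for XRCC1-KO. DCN, the remaining measured fibroblast marker, stood at 0.18 (p = 0.757) in XRCC1-KO by the authors' deposited values. The basal integrin gene ITGB4 stood at 0.20 (p = 0.032) and TP63, a transcription factor of basal cells, at -0.26 (p = 0.0942) by the authors' deposited values. The basal keratin gene KRT5 stood at 0.029 (p = 0.675) by the authors' deposited values. The remaining basal markers in XRCC1-KO were KRT17 at 0.30, KRT6A at 0.19, CDH3 at -0.079, KRT14 at -0.14 and ITGA6 at -0.15. KRT14, another basal keratin gene, had a larger standard error than 99.2% of genes of like abundance, KRT17 than 95.6% and TP63 than 91.6%. For the other basal markers this share was 82.4% (ITGA6), 78.8% (CDH3), 58.3% (KRT6A), 12.9% (ITGB4) and 0% (KRT5, of 11 genes). These genes were named after their values were seen.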
